A study of Mus musculus with 36 samples.

Results

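Microglia are the resident macrophages of the brain, and the 10 genes described here encode proteins for which these cells are known. They are the genes of the 3 chains of the complement component C1q (C1qa, C1qb and C1qc), of the receptors CSF1R, CX3CR1, P2RY12 and TREM2, of the adapter TYROBP, of the integrin chain ITGAM and of the cytoplasmic protein AIF1, also called IBA1. The genes were chosen by their symbols and not by their own values in these libraries, though with earlier results of these data known. They make up 10 of the 55492 entries of the counts table. Of the 10, 7 had a mean count above 5 over the 36 libraries and were tested among the 20355 genes of that kind, while C1qa (mean count 3.08), C1qb (2.89) and P2ry12 (3.31) had a mean of 5 or less and were tested only when the filter on low counts was dropped.

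The libraries came from dissociated mouse cortical cells of embryonic day 18 (C57EDCX in the labels), which were grown for 10 days and then treated for 72 h in 1 of 3 ways. Control cultures received fresh medium, the DEX group received 1 µM dexamethasone (DEX), a synthetic glucocorticoid, and the DEX + RU-486 group received 1 µM DEX together with 1 µM RU-486 (mifepristone), which blocks the glucocorticoid receptor. Each group had 12 libraries, 6 in each of the 2 batches that the labels give, and libraries are named here by their label numbers, 1 to 36. The cells were bought as a dissociated preparation and kept in a serum-free neuronal medium, and no source used here says that the replicates were separate preparations, so p-values measure the spread between these libraries.

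Microglia enter the brain early in development from the yolk sac, and they depend on signals through CSF1R, whose ligands are CSF1 and interleukin 34, for their survival. They touch neurons through CX3CR1, which binds the neuronal chemokine CX3CL1, and through P2RY12, a receptor for nucleotides. TREM2 senses lipids and signals through the adapter TYROBP (DAP12) and the kinase SYK, whereas C1q, which microglia secrete, can tag synapses for removal through the complement receptor that contains ITGAM. Other macrophages of the brain borders express several of these genes as well, and glucocorticoids are known to dampen many functions of macrophages. A cortical culture of embryonic cells holds mainly neurons, with few microglia.

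The positions of the genes are given for GRCm38, the build of the authors' counts, with the GENCODE M21 annotation, in which all 10 are protein coding. The C1q genes lie side by side on the minus strand of chromosome 4, C1qb at chr4:136880129-136886187, C1qc at chr4:136889804-136893065 and C1qa at chr4:136895917-136898803. Tyrobp (chr7:30413760-30417585) and Itgam (chr7:128062640-128118491) are on the plus strand of chromosome 7, and on chromosome 17 are Trem2 (chr17:48346401-48354147, plus strand) and Aif1 (chr17:35170991-35176068, minus strand). Csf1r is at chr18:61100598-61132149 on the plus strand, Cx3cr1 at chr9:119901616-120069879 on the minus strand and P2ry12 at chr3:59216272-59262871 on the minus strand. Exons of Csf1r share 873 bases with Hmgxb3 on the opposite strand, a gene with a mean count of 926, and exons of Itgam share 3450 bases with the gene model Gm49368 on the same strand (mean count 1.06). P2ry12 shares 9 exonic bases with Med12l on the opposite strand. The use of strand in counting is not given in the sources used here, so reads in these stretches cannot be assigned with certainty to one gene of each pair.

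RefSeq promoters (GRCm38.p6, 250 bases before to 50 bases after the start) were held for 7 of the 10 genes, and not for C1qa, Csf1r and Tyrobp. The 4 shown belong to genes that were higher in batch 2 than in batch 1, as described further on, and they let a reader see what these genes hold near their starts. Each is written 5′ to 3′ on the strand of its gene, and capitals mark GAGGAA on either strand (TTCCTC on the other), the core letters bound by PU.1, the transcription factor encoded by Spi1 on which the macrophage lineage depends.

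C1qc, chr4:136892865-136893164, minus strand: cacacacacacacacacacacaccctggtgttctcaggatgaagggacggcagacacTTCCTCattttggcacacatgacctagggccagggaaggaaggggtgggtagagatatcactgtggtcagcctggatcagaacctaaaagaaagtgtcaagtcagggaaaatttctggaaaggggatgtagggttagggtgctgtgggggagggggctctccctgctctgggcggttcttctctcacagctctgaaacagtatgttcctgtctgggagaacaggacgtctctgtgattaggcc

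Itgam, chr7:128062390-128062689, plus strand: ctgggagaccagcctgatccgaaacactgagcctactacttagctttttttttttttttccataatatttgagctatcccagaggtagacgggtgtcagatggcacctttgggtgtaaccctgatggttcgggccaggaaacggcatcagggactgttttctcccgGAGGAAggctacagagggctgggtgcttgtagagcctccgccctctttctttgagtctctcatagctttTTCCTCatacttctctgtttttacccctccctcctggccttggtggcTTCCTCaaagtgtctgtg

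Trem2, chr17:48346151-48346450, plus strand: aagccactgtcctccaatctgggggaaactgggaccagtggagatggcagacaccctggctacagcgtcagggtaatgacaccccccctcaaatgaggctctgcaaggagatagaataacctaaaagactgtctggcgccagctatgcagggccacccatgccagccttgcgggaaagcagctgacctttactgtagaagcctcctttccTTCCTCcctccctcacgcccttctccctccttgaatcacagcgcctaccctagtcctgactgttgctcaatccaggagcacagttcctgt

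Cx3cr1, chr9:120068247-120068546, minus strand: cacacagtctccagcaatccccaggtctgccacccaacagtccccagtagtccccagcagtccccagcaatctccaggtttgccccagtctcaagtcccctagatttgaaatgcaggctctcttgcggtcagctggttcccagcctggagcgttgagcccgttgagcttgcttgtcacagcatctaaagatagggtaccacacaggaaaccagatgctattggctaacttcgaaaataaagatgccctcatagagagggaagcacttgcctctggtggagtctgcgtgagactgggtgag

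The letters GAGGAA stood in 5 of the 7 promoters, those of C1qb, C1qc, Itgam, Aif1 and Trem2, and in 28.28% of the 32851 mouse promoters in the table. The Itgam promoter held them 3 times, and those of Cx3cr1 and P2ry12 did not hold them. A match of letters is a description of the window and not of binding.

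The libraries held between 12.1 and 82.4 M counts, and 6 libraries of batch 2, 2 of each group (control 19 and 20, DEX 25 and 26, DEX + RU-486 31 and 32), stood apart with an RNA integrity number (RIN) under 3, against 7.4 or above in the other 12 of that batch. In batch 1, control libraries had a RIN of 7.8 to 9.2 and 24.2 to 82.4 M counts, and DEX libraries a RIN of 3.9 to 7.8 and 12.1 to 22.3 M counts, so RIN and depth cannot be told apart from the treatment there. Levels are given as CPM, the reads of a gene per 1 M of the total of a library times its TMM factor, and 3 counts corresponded to between 0.0288 and 0.310 CPM. The TMM factor was 0.430 to 0.780 in the 6 libraries of low RIN and 1.06 to 1.34 in the other 12 of batch 2, so that an equal share of reads gives a higher CPM in the former.

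The microglia genes were close to the limit of detection in every group. Itgam had the highest single count of the 10 genes, 53 reads in control library 23, and the 10 genes together gathered between 10 and 257 reads in a library. C1qa had no read in 17 of the 36 libraries, Tyrobp in 14, C1qb in 13, Trem2 and P2ry12 in 11 each, C1qc in 9, Aif1 in 7, Csf1r and Cx3cr1 in 5 each and Itgam in 3. The number of the 10 genes with at least 1 read ranged from 3, in DEX library 12, to 10. A value of 0 in a single library therefore does not show that a gene was absent from it.

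Per length, the level of the 10 genes ran from 0.0487 CPM per kilobase of exon for P2ry12 to 0.267 for Tyrobp, with a median of 0.0921 (means over 36 libraries). Of the 45364 genes with at least 1 read, between 37.7% (P2ry12) and 63.4% (Tyrobp) had a lower level per length than these 2 genes. Over all libraries Tyrobp and P2ry12 bounded the order, and between them stood Aif1 (0.164), C1qc (0.157), C1qa (0.125), Cx3cr1 (0.0948), C1qb (0.0894), Trem2 (0.0748), Csf1r (0.0706) and Itgam (0.0694), neighbours whose levels overlapped between libraries. The order differed by batch: in batch 1 Aif1 was highest (0.119) and Trem2 lowest (0.0191), and in batch 2 Tyrobp was highest (0.440) and P2ry12 lowest (0.0639). Markers of neurons, the main cells of such a culture, ranged from 10.3 (Rbfox3) to 217 CPM per kilobase (Tubb3).

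**Figure D1:**
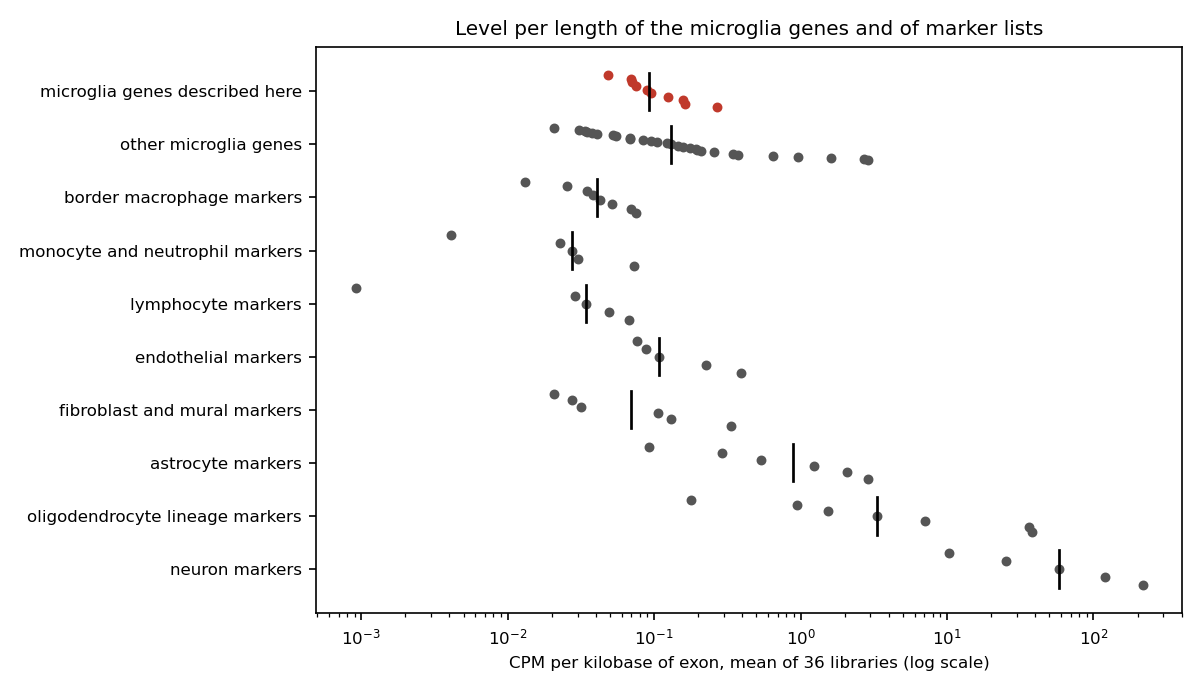
CPM per kilobase of exon (log scale, mean of 36 libraries) for the 10 microglia genes and for lists of marker genes, with 1 point per gene and a bar at the median of each list. The 10 genes, with a median of 0.0921, lie far below the 5 neuron markers (median 57.8), and Trem2, Csf1r, Itgam and P2ry12 lie below the lowest endothelial marker (0.0760).

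Other genes of microglia were measured to check the label. Of 29 such genes, 19 had a mean count above 5, among them Rgs10, a regulator of G protein signalling that neurons also express at some level (mean count 129). Tmem119, Siglech and Fcrls, which are used to tell microglia from other macrophages, were among the 10 others and had mean counts of 1.31, 1.83 and 1.75 and no read in 22, 21 and 22 of the 36 libraries. These 3, named after their values were seen, were thus near the limit of detection. Other genes of the 29, also named after their values were seen, had more reads. Sall1 had a mean count of 112 and reads in all 36 libraries. Olfml3 (13.1), P2ry13 (8.61) and Gpr34 (8.14) had no read in 4, 3 and 4 libraries. The 8 markers of border macrophages had a median of 0.0405 CPM per kilobase, against 0.0921 for the 10 genes, and 2 of them, Stab1 and F13a1, had a mean count above 5. All 5 markers of monocytes and neutrophils and all 5 of lymphocytes had a mean count of 5 or less. Of the 8 markers of border macrophages, Pf4 had no read in 31 of 36 libraries and Cbr2 in 30. Mrc1 and Ms4a7 had none in 15 each, Cd163 in 14, and F13a1 and Lyve1 in 8 each. Stab1 had reads in all 36, and each of the 10 microglia genes had reads in at least 19. All markers of border macrophages but Pf4 and Cbr2 were thus read in more libraries than C1qa, which had no read in 17. Reads of microglia genes were thus present at a low level, those of border macrophages were not absent, and in a bulk library fewer cells and less RNA per cell cannot be told apart.

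The first comparison was between the treatments, over both batches with the batch as a covariate. No microglia gene differed between DEX and control: 0 of the 7 tested passed an adjusted p of 0.05 (edgeR's quasi-likelihood test, Benjamini-Hochberg), where 0.0246% of all tested genes passed, and 0 had an unadjusted p under 0.05, where 16.9% of all did. In DEX + RU-486 against control the counts were 0 and 0, with 0% and 10.8% of all genes, and in DEX + RU-486 against DEX they were again 0 and 0, with 0% and 2.68%. DESeq2 likewise called 0 of the 7 in each of the 3 comparisons, where it called 2.21%, 0.481% and 0.00983% of all genes, and 0 of the 7 had an unadjusted p under 0.05 there, where 18.0%, 12.1% and 3.64% of all did. Dropping the filter on low counts left 0 of the 10 called by edgeR in each, with 0.0110%, 0% and 0% of 45544 genes called and 0 of the 10 at an unadjusted p under 0.05, where 15.2%, 11.6% and 8.82% of all were. The median log2 fold change of the 7 genes was -0.10, 0.12 and 0.24 in the 3 comparisons, and that of all tested genes -0.01, 0.02 and 0.02. The 95% intervals were wide. For Csf1r, the gene with the highest mean count, the interval of DEX against control ran from -2.18 to 0.46 on the log2 scale. A fall by 1 on that scale could thus not be told from none.

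**Figure D2:**
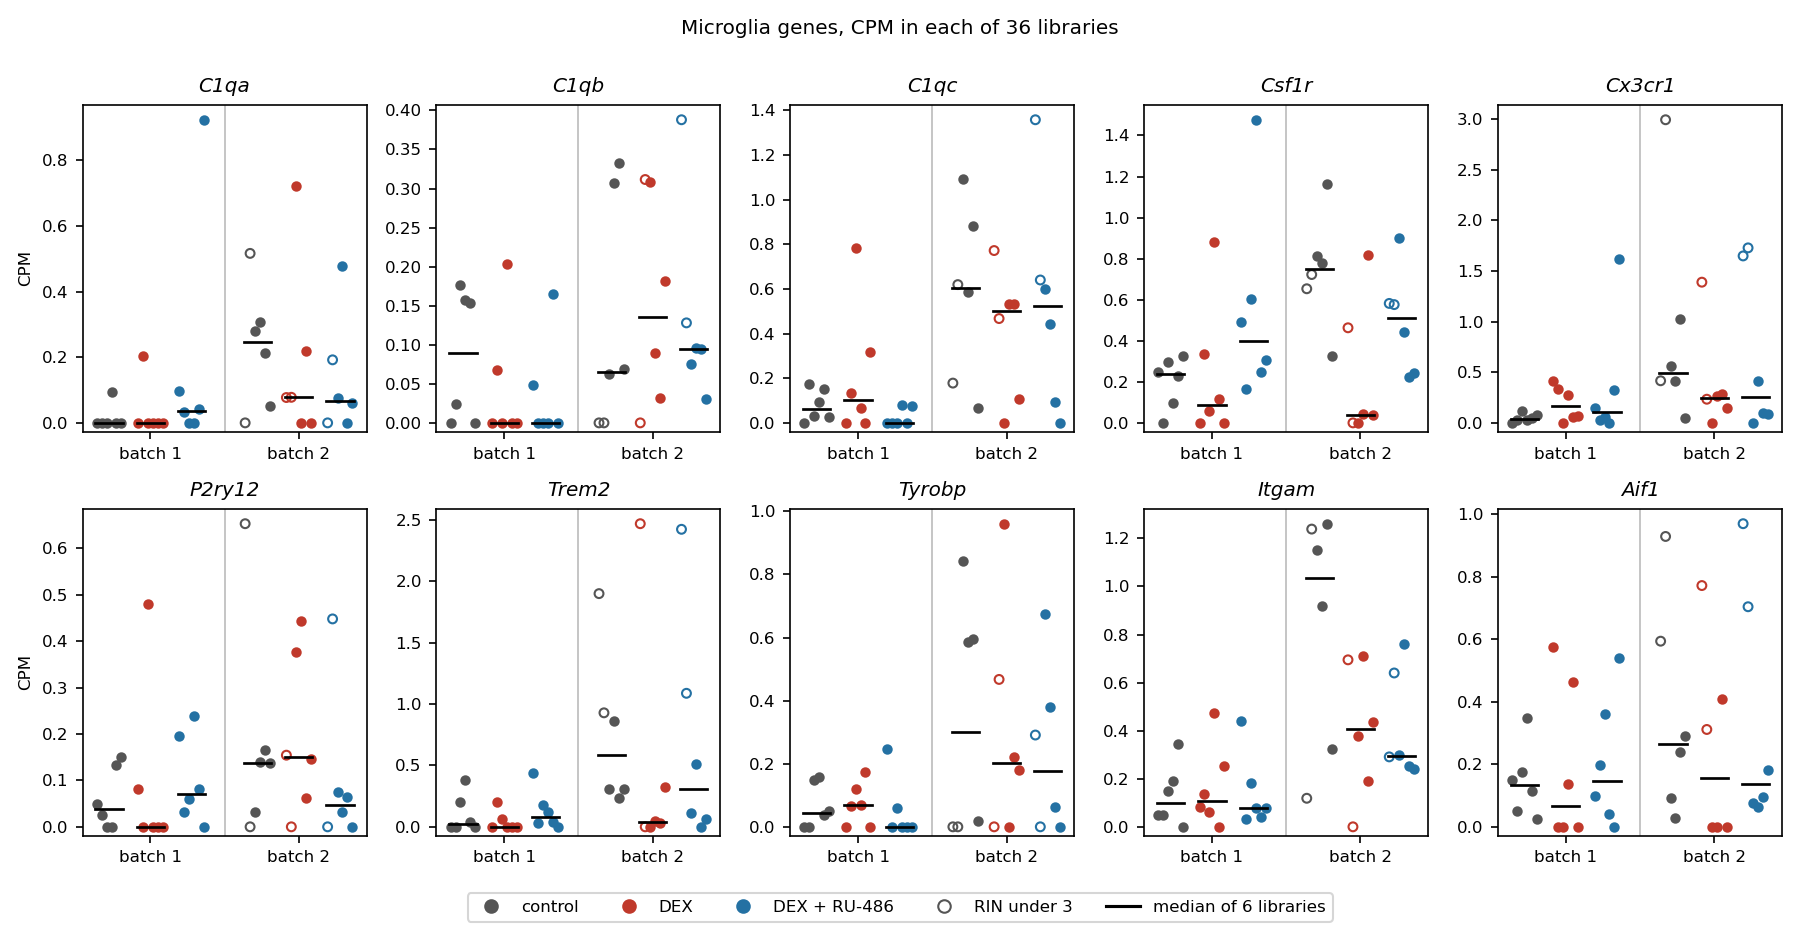
CPM of each of the 10 microglia genes in each of the 36 libraries, by batch and treatment, with bars at the median of 6 libraries and open symbols for libraries of RIN under 3 (each panel has its own axis). The groups overlap within each batch for every gene, and most points of batch 1 lie near 0.

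Among the complement genes, C1qa encodes the A chain of C1q. Its counts in batch 1 were 0 in 5 of 6 control libraries and 3 in library 4, 0 in 5 of 6 DEX libraries and 3 in library 8, and 0 to 12 in DEX + RU-486 (median 1). In batch 2 they were 0 to 11 in control (median 7), 0 to 21 in DEX (median 1) and 0 to 15 in DEX + RU-486 (median 2). Control libraries thus stood highest by their median in batch 2, but each group there held at least 1 library with no read.

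C1qb, which encodes the B chain, had counts of 0 to 16 in the control libraries of batch 1, 0 to 3 in DEX and 0 to 4 in DEX + RU-486. In batch 2 the ranges were 0 to 14, 0 to 9 and 1 to 4. The groups overlapped in both batches, and no group had a median above 3 counts.

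C1qc, the C chain gene and the most often read of the 3, had 0.0620 CPM as the median of control libraries in batch 1 (0 to 0.173), 0.102 in DEX (0 to 0.781) and 0 in DEX + RU-486 (0 to 0.0798). In batch 2 the medians were 0.602 in control (0.0685 to 1.09), 0.500 in DEX (0 to 0.772) and 0.522 in DEX + RU-486 (0 to 1.36). All 3 groups were higher by their medians in batch 2, where they overlapped over most of their range. Over both batches the log2 fold change was 0.49 in DEX against control (SE 0.72, 95% interval -0.97 to 1.94, adjusted p = 0.796) and -0.51 in DEX + RU-486 against control (SE 0.72, adjusted p = 0.845). Within batch 1, DEX + RU-486 was lower than DEX by a log2 fold change of -3.01 (SE 1.17) at an unadjusted p of 0.0177, which did not pass edgeR's adjustment over all genes (adjusted p = 1.00), and in batch 2 the value was 0.33 (SE 0.95). The difference between the batches in this comparison was 3.33 (SE 1.52, unadjusted p = 0.0357, adjusted p = 1.00). DEX library 9 carried 13 of the 21 C1qc reads of the DEX group in batch 1, and without it the fold change of DEX against control over both batches fell to -0.19.

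Beside the C1q genes and Itgam, 32 genes of the complement system were listed, of which 15 had a mean count above 5. In each treatment comparison edgeR called 0 of the 15, where it called 0.0246%, 0% and 0% of all tested genes. At an unadjusted p under 0.05 there were 0, 0 and 1, where 16.9%, 10.8% and 2.68% of all were. Cr1l, a regulator of complement on cell surfaces, had the highest mean count (322) and a log2 fold change of -0.15 (SE 0.18) in DEX against control. Masp1, a protease of the lectin pathway, followed with 294 and a log2 fold change of 0.00 (SE 0.15).

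Csf1r encodes the receptor on which microglia depend for survival. In batch 1 its level had a median of 0.240 CPM in control (0 to 0.328), 0.0881 in DEX (0 to 0.882) and 0.400 in DEX + RU-486 (0.164 to 1.48). The medians of batch 2 were 0.752 in control (0.325 to 1.17), 0.0404 in DEX (0 to 0.818) and 0.510 in DEX + RU-486 (0.221 to 0.900). In batch 2 every control and every DEX + RU-486 library had 6 or more reads of Csf1r, whereas 4 of the 6 DEX libraries had 1 or 0 reads, and DEX libraries 25 (6 reads) and 29 (26 reads) lay within the range of the control group by their CPM, at 0.463 and 0.818. Over both batches the log2 fold change was -0.86 in DEX against control (SE 0.65, 95% interval -2.18 to 0.46, unadjusted p = 0.194, adjusted p = 0.535). In DEX + RU-486 against DEX it was 1.19 (SE 0.65, interval -0.12 to 2.50, unadjusted p = 0.0735, adjusted p = 1.00), and the 36 fits that each left out 1 library gave 0.82 to 1.78.

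Within batches, Csf1r in DEX against control was 0.24 (SE 0.86) in batch 1 and -1.66 (SE 0.85, unadjusted p = 0.0655, adjusted p = 1.00) in batch 2. The difference between these was -1.88 (SE 1.25, unadjusted p = 0.142), which edgeR did not call. In the libraries of RIN 6 or above of batch 2, the value was -1.69 (SE 0.92, unadjusted p = 0.0841).

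The ligands of these receptors were present in the same libraries. Cx3cl1, the chemokine of neurons, had a mean count of 999, and Csf1 had 63.5. In DEX against control the log2 fold changes were -0.45 (SE 0.22, adjusted p = 0.303) for Cx3cl1 and -0.04 (SE 0.26) for Csf1, and in each treatment comparison 0 of the 4 ligand genes listed were called by edgeR or had an unadjusted p under 0.05. Of all tested genes, 0.0246%, 0% and 0% were called, and 16.9%, 10.8% and 2.68% had such an unadjusted p.

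Cx3cr1 encodes the fractalkine receptor. In batch 1 its median was 0.0397 CPM in control (0 to 0.118), 0.167 in DEX (0 to 0.411) and 0.104 in DEX + RU-486 (0 to 1.62), with 21 of the 34 reads of the last group in library 18, whose RIN was 5.6. Batch 2 had medians of 0.490 (0.0514 to 2.99), 0.250 (0 to 1.39) and 0.254 (0 to 1.73). The highest library of each group in batch 2 had a RIN under 3, and the groups overlapped. Over both batches the log2 fold change was -0.10 (SE 0.96) in DEX against control and 0.78 (SE 0.81, adjusted p = 0.768 in edgeR) in DEX + RU-486 against control. The latter ranged from 0.10 to 1.35 with 1 library left out in turn, and was -0.46 in the libraries of RIN 6 or above. By batch, DEX against control was 1.86 (SE 1.06, unadjusted p = 0.0924, adjusted p = 0.229) in batch 1 and -1.22 (SE 1.10, unadjusted p = 0.284) in batch 2, and the difference of -3.06 (SE 1.58, unadjusted p = 0.0601, adjusted p = 0.415) was not called by edgeR. At RIN 6 or above these were 2.06 (SE 0.94, unadjusted p = 0.0395, adjusted p = 0.132) and -1.53 (SE 1.02, unadjusted p = 0.153).

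Within batch 1, DEX + RU-486 against control gave the lowest p of the 7 genes in the treatment comparisons of a single batch, with Cx3cr1 at 2.73 on the log2 scale (SE 1.03, unadjusted p = 0.0144, adjusted p = 0.0744 in edgeR), while 15.4% of all genes were called in that comparison. DESeq2 called Cx3cr1 there, 1 of the 7, along with 19.8% of all genes. When DEX library 12 and DEX + RU-486 library 18, both of a RIN below 6, were left out of batch 1, the value was 1.20 (SE 0.94, unadjusted p = 0.218). In batch 2 the value was -0.46 (SE 1.08), and the difference between the batches was -3.17 (SE 1.53, unadjusted p = 0.0454, adjusted p = 0.409).

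P2ry12, the nucleotide receptor gene used to mark resting microglia, had the lowest level per length over all libraries and in batch 2, though not in batch 1. Its counts in batch 1 were 0 to 14 in control (median 1.5), 0 to 8 in DEX (median 0) and 0 to 6 in DEX + RU-486 (median 1.5). In batch 2 they were 0 to 11 in control (median 6), 0 to 11 in DEX (median 3) and 0 to 7 in DEX + RU-486 (median 1.5). Every group of both batches held at least 1 library without a read. With the filter on low counts dropped, the log2 fold change was 0.32 (SE 0.84) in DEX against control and -0.39 (SE 0.88) in DEX + RU-486 against DEX.

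Trem2 and Tyrobp encode a receptor and the adapter that carries its signal. Trem2 in batch 1 had a median of 0.0192 CPM in control (0 to 0.378), 0 in DEX (0 to 0.203) and 0.0805 in DEX + RU-486 (0 to 0.442). In batch 2 the medians were 0.588 (0.238 to 1.90), 0.0379 (0 to 2.47) and 0.310 (0 to 2.42). All 6 control libraries of batch 2 had 9 or more reads of Trem2, and 4 of the 6 DEX libraries had 1 or 0, while DEX library 25, of RIN 2.2, had 32 reads, as many as the highest control library. The log2 fold change over both batches was -0.81 in DEX against control (SE 0.87, interval -2.56 to 0.95, adjusted p = 0.695), and -2.23 without that library. Within batch 2 it was -0.69 (SE 1.23, unadjusted p = 0.580) in all libraries, and in those of RIN 6 or above -2.04 (SE 1.09, unadjusted p = 0.0782, adjusted p = 0.347).

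Tyrobp in batch 1 had a median of 0.0444 CPM in control (0 to 0.158), 0.0677 in DEX (0 to 0.174) and 0 in DEX + RU-486 (0 to 0.246). The medians of batch 2 were 0.301 (0 to 0.842), 0.201 (0 to 0.961) and 0.177 (0 to 0.675). The groups overlapped almost fully in both batches, and each held at least 1 library without a read. The log2 fold change was -0.02 (SE 0.98) in DEX against control and -0.47 (SE 0.81) in DEX + RU-486 against control. A list of 8 genes around the signalling of Tyrobp was also measured, and not all of them act downstream of it. All 8 had a mean count above 5. Sirpa (2206), an inhibitory receptor that neurons also make and not a part of that pathway, had the highest. Plcg2 (81.0), the phospholipase used by TREM2, followed. In DEX against control Sirpa was at -0.49 on the log2 scale (SE 0.21, adjusted p = 0.222) and Plcg2 at -0.25 (SE 0.52). In each treatment comparison edgeR called 0 of the 8, where it called 0.0246%, 0% and 0% of all tested genes. At an unadjusted p under 0.05 there were 1, 1 and 0 of the 8, and 16.9%, 10.8% and 2.68% of all.

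Itgam, which encodes the alpha chain of complement receptor 3 (CD11b), was read in more libraries than any other of the 10 genes. Its median in batch 1 was 0.0986 CPM in control (0 to 0.345), 0.109 in DEX (0 to 0.475) and 0.0784 in DEX + RU-486 (0.0328 to 0.442). Batch 2 had medians of 1.04 in control (0.119 to 1.26), 0.407 in DEX (0 to 0.710) and 0.295 in DEX + RU-486 (0.242 to 0.762). In batch 2, 4 of the 6 control libraries lay above every DEX and every DEX + RU-486 library, and control libraries 19 and 24 did not. The log2 fold changes in batch 2 were -1.03 in DEX against control (SE 0.68, unadjusted p = 0.149) and -0.99 in DEX + RU-486 against control (SE 0.68, unadjusted p = 0.163), and in the libraries of RIN 6 or above they were -1.09 (SE 0.57, unadjusted p = 0.0771) and -1.20 (SE 0.57, unadjusted p = 0.0518). In batch 1 they were 0.34 (SE 0.88) and 0.08 (SE 0.89).

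Aif1 encodes IBA1, the actin-binding protein by which microglia are most often stained. In batch 1 its median was 0.133 CPM in control (0.0252 to 0.347), 0.0679 in DEX (0 to 0.576) and 0.148 in DEX + RU-486 (0 to 0.539). In batch 2 the medians were 0.265 (0.0279 to 0.929), 0.156 (0 to 0.772) and 0.138 (0.0635 to 0.970). No read of Aif1 was found in 3 of the 6 DEX libraries of each batch and in 1 DEX + RU-486 library of batch 1, every control library had at least 1, and the groups overlapped. Over both batches the log2 fold change was -0.06 (SE 0.77) in DEX against control and 0.18 (SE 0.73) in DEX + RU-486 against control.

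**Figure D3:**
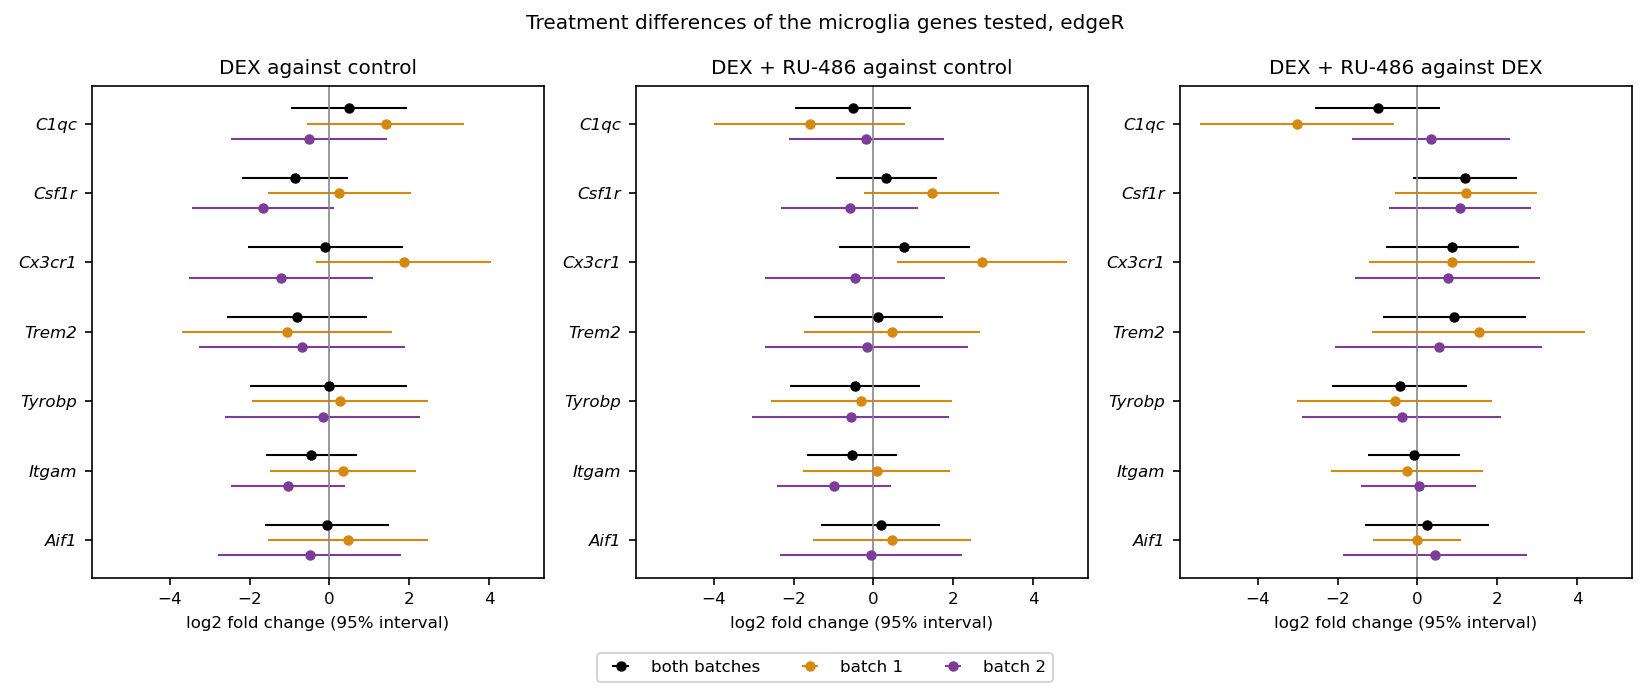
Log2 fold changes (points) with 95% intervals (lines) of the 7 tested microglia genes in 3 treatment comparisons, from all libraries with the batch as a covariate (black) and from each batch alone (orange, purple). All intervals of the fit over both batches include 0, and in batch 2 the 7 points of DEX against control lie between -1.66 and -0.17.

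Taken by batch, edgeR called 0 of the 7 in each treatment comparison. In batch 1, 19% of all genes were called in DEX against control, 15.4% in DEX + RU-486 against control and 0% in DEX + RU-486 against DEX, and in batch 2 the share was 0% in all 3. At an unadjusted p under 0.05 the 7 genes gave 0, 1 (Cx3cr1) and 1 (C1qc) in batch 1, where all genes gave 32.5%, 30.2% and 4.09%, and 0, 0 and 0 in batch 2, where all genes gave 2.19%, 0.894% and 2.18%. In batch 2 all 7 log2 fold changes were negative in DEX against control, with a median of -0.69 against 0.00 for all tested genes, and all 7 were negative in DEX + RU-486 against control, with a median of -0.46 against 0.01. With libraries of RIN 6 or above the medians of the 7 were -1.13 and -1.19, against 0.01 and 0.03 for all tested genes. These 2 comparisons share the 6 control libraries of batch 2. In DEX + RU-486 against DEX of batch 2, 6 of the 7 were positive, with a median of 0.44 against 0.01, but with libraries of RIN 6 or above 2 of the 7 were, with a median of -0.06. In batch 1, 6 of the 7 were positive in DEX against control, with a median of 0.34 against 0.06 for all tested genes, and 5 of the 7 in DEX + RU-486 against control, with a median of 0.46 against 0.05. In DEX + RU-486 against DEX of batch 1, 3 of the 7 were positive. At RIN 6 or above the 3 comparisons of batch 1, in the order just given, had 6, 4 and 2 of the 7 positive and medians of 0.56, 0.18 and -0.66. The comparisons within a batch share libraries in pairs. The difference between the batches in each treatment effect was called by edgeR for 0 of the 7 genes, and for 0.172%, 0.0835% and 0% of all tested genes in the 3 comparisons. At an unadjusted p under 0.05 these differences numbered 0, 1 and 1 among the 7 and 12.9%, 11.9% and 2.29% among all, and DESeq2 called 0 of the 7 and 1.76%, 1.41% and 0% of all.

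The levels of the 10 genes were also summed in each library. In batch 1 the sum had a median of 0.955 CPM in control (0.346 to 1.54), 1.32 in DEX (0.631 to 2.10) and 1.77 in DEX + RU-486 (0.526 to 3.54). The medians of batch 2 were 5.09 (1.64 to 7.95), 2.44 (1.56 to 6.79) and 3.25 (0.906 to 7.95). Control libraries were thus lowest by the median in batch 1 and highest in batch 2, and the groups overlapped in both. No test was made on the sum.

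The second comparison was between the batches, with the treatment as a covariate. Of the 7 tested genes, 5 were higher in batch 2, as were 18.2% of all tested genes (edgeR). Trem2 was higher by 2.74 on the log2 scale (SE 0.73, adjusted p = 0.00466), C1qc by 2.41 (SE 0.64, adjusted p = 0.00445), Tyrobp by 2.20 (SE 0.68, adjusted p = 0.0130), Cx3cr1 by 1.90 (SE 0.71, adjusted p = 0.0364) and Itgam by 1.83 (SE 0.47, adjusted p = 0.00339). Csf1r, with 0.58 (SE 0.53, adjusted p = 0.410), and Aif1, with 0.76 (SE 0.61, adjusted p = 0.342), were not called. Genes of such low counts were often higher in batch 2: among the 3143 tested genes with mean counts between those of Tyrobp and Csf1r, 31.1% were called higher and the median log2 fold change was 0.89. All 5 called genes had a mean count of 5 or less in batch 1, from 1.61 for Tyrobp to 4.61 for Itgam, and passed the filter through batch 2 alone (8.61 for Tyrobp to 15.1 for Itgam), so the count of tested members supports nothing by itself.

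Without the filter all 10 genes could be fitted, and the same 5 were called, where 27.7% of all 45544 genes were called higher. In that fit C1qa was at 1.76 (SE 0.90, adjusted p = 0.115), C1qb at 1.25 (SE 0.72, adjusted p = 0.164) and P2ry12 at 0.80 (SE 0.71, adjusted p = 0.378). Reads of C1qa were found in 6 of 18 libraries of batch 1 and in 13 of 18 of batch 2.

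**Figure D4:**
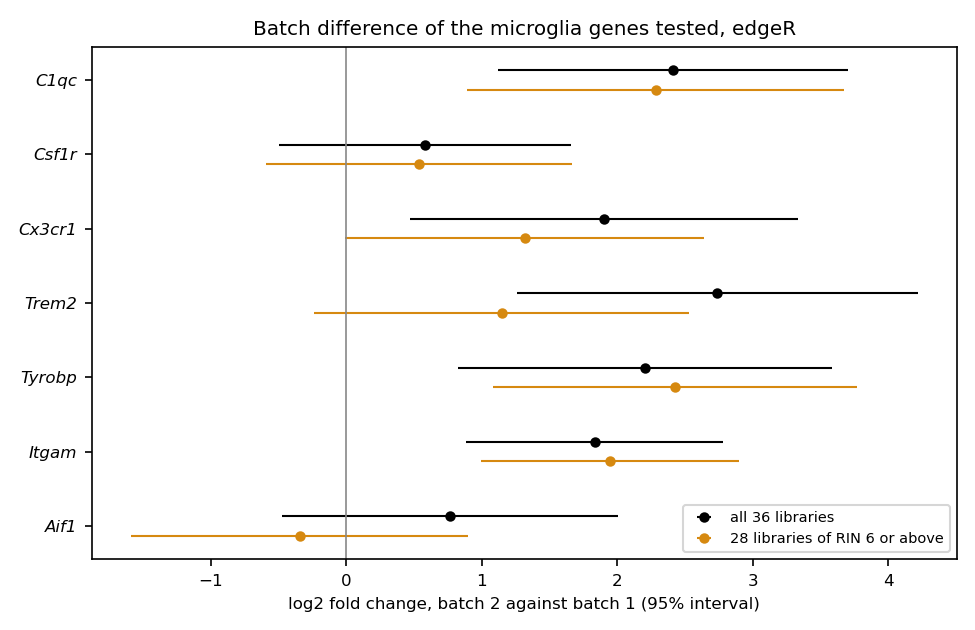
Log2 fold changes of batch 2 against batch 1 (points) with 95% intervals (lines) for the 7 tested microglia genes, in all 36 libraries (black) and in the 28 libraries of RIN 6 or above (orange). The intervals of C1qc, Tyrobp and Itgam lie above 0 in both sets, and that of Trem2 includes 0 in the libraries of higher RIN.

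Among the libraries of higher RIN some of these genes lost their call in the batch comparison and others did not. Those libraries are also fewer, and the cause was not tested. With the 28 libraries of RIN 6 or above, Tyrobp (2.42, SE 0.66), C1qc (2.28, SE 0.68) and Itgam (1.95, SE 0.47) were still called, which makes 3 of the 7, where 23.4% of all tested genes, and 19.1% of those in the same range of mean counts, were called higher. Trem2 (1.15, SE 0.68, adjusted p = 0.163) and Cx3cr1 (1.32, SE 0.65, adjusted p = 0.0930) were not, and Aif1 was at -0.34 (SE 0.61). The same 3 genes were called with libraries of RIN 3 or above, and with RIN as a covariate. With the control libraries alone, Csf1r was called at 1.84 (adjusted p = 0.0397 in edgeR), and Tyrobp, at 2.44, was not (adjusted p = 0.104). The call of Cx3cr1 was lost when any of control libraries 1 to 6 and 20, DEX 25 and DEX + RU-486 31 and 32 was left out in turn, with values of 1.60 to 1.85 on the log2 scale and adjusted p of 0.0527 to 0.0861 in edgeR.

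Within batch 2 the 6 libraries of RIN under 3 differed from the other 12 in opposite ways for Trem2 and for its adapter. Trem2 had a median of 1.49 CPM in the 6 (0 to 2.47) and 0.175 in the 12 (0 to 0.864). Tyrobp had a median of 0 in the 6 (0 to 0.467) and 0.301 in the 12 (0 to 0.961), with no read in 4 of the 6. Cx3cr1 (1.52 against 0.206 CPM) and Aif1 (0.738 against 0.0842 CPM) followed Trem2, and C1qa (0.0775 against 0.145 CPM) followed Tyrobp. For Itgam (0.466 against 0.407 CPM) and C1qc (0.630 against 0.489 CPM) the medians were close. The 2 sets overlapped for each of these genes, no test was made, and the part of RNA integrity in the batch difference of Trem2 and Cx3cr1 was not tested further.

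**Figure D5:**
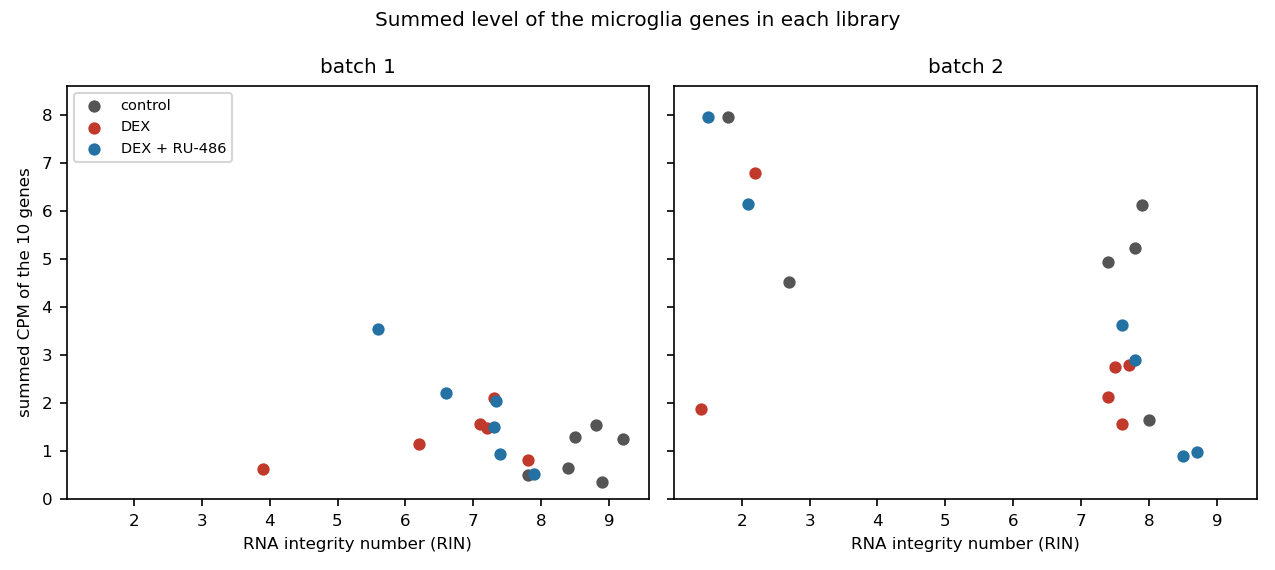
Summed CPM of the 10 microglia genes against RIN in each library of batch 1 and batch 2, coloured by treatment. In batch 2 the 6 libraries of RIN under 3 lie between 1.87 and 7.95 CPM and the other 12 between 0.906 and 6.12, and in batch 1 all 18 lie at or below 3.54.

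Some lists of genes around the 10 held genes that differed between the batches, where edgeR called 18.2% of all tested genes higher and 14.3% lower, and 31.1% higher at the mean counts of the 7 genes. Of the 19 tested genes among the other microglia genes, 10 were higher in batch 2 and 0 lower, with a median log2 fold change of 0.99 against 0.08 for all tested genes and 0.89 at those mean counts. Genes of low counts in this list and those below could pass the filter, a mean over all libraries, through batch 2 alone. The counts of called genes in these lists therefore support nothing by themselves. Examples, here and for the lists that follow named after their values were seen, are the receptor Cd33 (3.19, SE 0.72), the phosphatase Ptprc (2.04, SE 0.66) and Itgb2 (1.87, SE 0.60), whose product pairs with ITGAM. Of the 8 genes listed around the signalling of Tyrobp 5 were higher, among them Vav1 (2.27, SE 0.63) and Syk (0.96, SE 0.30), and Sirpa was lower (-0.82, SE 0.17). Of the 9 tested genes of phagocytic and inflammatory microglia, 4 were higher, such as Spp1 (2.05, SE 0.65) and Apoe (1.09, SE 0.28), which astrocytes also express, and the lipase gene Lpl was lower (-0.34, SE 0.14, adjusted p = 0.0473). Of the 4 ligand genes Cx3cl1 was lower in batch 2 (-1.06, SE 0.18, adjusted p = 7.62e-05 in edgeR) and Tgfb1, a growth factor on which microglia depend, was higher (1.50, SE 0.57, adjusted p = 0.0422). Of the 4 tested microglia transcription factors 0 were higher and Mef2c, which neurons also express, was lower (-0.53, SE 0.13), and of the 15 tested complement genes 3 were higher, Itgb2 of the list above among them, and 0 lower, with a median of 0.29.

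Markers of other cells were also unequal between the batches. These fits used all 36 libraries, those of RIN under 3 included. Of the 5 neuron markers Snap25 (-0.48, SE 0.087) and Rbfox3 (-0.34, SE 0.099) were lower in batch 2 and Map2 (1.10, SE 0.29) was higher. The sum of the 5 in batch 2 had medians of 1874 (control), 1853 (DEX) and 1877 CPM (DEX + RU-486). Its highest libraries there reached 5687, 9190 and 7360 CPM, against 2865, 2437 and 2513 CPM in batch 1. Of the 7 oligodendrocyte lineage markers 4 were higher in batch 2, named here after their values were seen, Pdgfra (2.42, SE 0.31), Cspg4 (2.12, SE 0.40), Olig2 (2.03, SE 0.31) and Olig1 (1.69, SE 0.30). The summed level of the list in control libraries was 59.2 to 271 CPM in batch 1 and 384 to 2155 CPM in batch 2. The medians of that sum in batch 1 and batch 2 were 107 and 448 CPM in control, 537 and 754 CPM in DEX, and 387 and 355 CPM in DEX + RU-486. Of the 6 astrocyte markers 2 were higher (Aqp4 and Aldoc). Border macrophage markers were called in 0 of 2 tested. Their summed level in control libraries was 0.287 to 1.48 CPM in batch 1 (median 0.449) and 0.702 to 9.08 CPM in batch 2 (median 2.11). In the treated groups the medians of batch 1 and batch 2 were close, 1.29 and 1.26 CPM in DEX and 1.23 and 1.36 CPM in DEX + RU-486. Monocyte and neutrophil markers summed to 0 to 0.118 CPM in the control libraries of batch 1 (median 0) and to 0.125 to 3.41 CPM in those of batch 2 (median 0.160). Their medians in batch 1 and batch 2 were 0.0316 and 0 CPM in DEX and 0.0206 and 0.138 CPM in DEX + RU-486. S100a9, a gene of this list, had no read in 35 of the 36 libraries. The part of the makeup of the cultures in the batch difference of the microglia genes was not tested. Nor was the part of RNA integrity in the batch difference of these markers.

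In the treatment comparisons over both batches the other lists had no calls either. In each of the 3 comparisons edgeR called 0 genes of every list, including the 6 transcription factors of microglia, of which 4 were tested, and the 20 genes of phagocytic and inflammatory microglia, of which 9 were. Of all tested genes it called 0.0246%, 0% and 0%. Mef2c, a factor that neurons express as well, had the highest count of these factors and was at -0.42 on the log2 scale (SE 0.155, unadjusted p = 0.0106, adjusted p = 0.168) in DEX against control. Apoe was at 1.12 (SE 0.33, adjusted p = 0.0925) and Cd63 at -0.06 (SE 0.13). The 5 known targets of the glucocorticoid receptor, which serve as a check of the treatment, also gave 0 calls. At an unadjusted p under 0.05 there was 1 of the 5 in each comparison, and 16.9%, 10.8% and 2.68% of all tested genes. Per1 was at 0.40 (SE 0.14, adjusted p = 0.129) and Fkbp5 at 0.03 (SE 0.16, adjusted p = 0.946) in DEX against control. By batch, the summed level of the 5 targets had medians of 75.8 CPM in control, 110.5 in DEX and 103.9 in DEX + RU-486 in batch 1. In batch 2 these medians were 110.9, 108.5 and 98.7 CPM.

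Pairs of the 7 tested genes varied together to unlike degrees. Across the libraries of batch 1 the 21 pairs of tested members had a median Pearson correlation of 0.087 (-0.51 to 0.62) in log2 CPM, and across those of batch 2 of 0.43 (-0.44 to 0.71), where Cx3cr1 and Trem2 formed the highest pair. The points share the depth and the RIN of their library, and these values are a description. The 5 tested genes whose levels over the 36 libraries, centred within batch, were most like the mean of the 7 members were Olfr981 (r = 0.71), Tbxas1 (0.68), Gm45774 (0.67), Traf1 (0.66) and Gm38246 (0.66), and all 5 had mean counts between 6 and 10.7. Tbxas1 encodes thromboxane synthase, which macrophages express, and Olfr981 an olfactory receptor, and for Olfr981 the value was 0.17 within batch 1 and 0.82 within batch 2.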

How the data were processed

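RNAseq was measured in 36 libraries, which were placed in groups by the treatment, batch and RIN that the sample labels give. The labels name poly(A) selection, whereas the study's methods describe total RNA libraries. The authors deposited 1 table of raw counts, whole numbers of reads per gene and library without normalization, which per the submitters' processing notes was made with HISAT2 2.1.0 and Subread 1.5.0-p2 on GRCm38. The annotation release, the use of strand, and which of the alignments that the methods describe lies behind the table are not given in the sources used here. Of the 55492 entries, 5 are transgene names and 55227 matched GENCODE M21, which gave symbols, positions and exon lengths.

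Genes with a mean count above 5 over all libraries were kept (20355), as in the study's methods. The counts were tested in R 4.3.3 with edgeR 4.0.16 (TMM factors, quasi-likelihood test, all 3 groups in 1 model, the batch as a term). Benjamini-Hochberg adjusted p-values over all tested genes were called under 0.05. SEs were derived from each log2 fold change and its F value. Such an SE, and the interval made from it, is imprecise where the fold change is close to 0, as for Aif1 in DEX + RU-486 against DEX of batch 1. The batch comparison, fits within each batch, and the difference between batches (an interaction term) used the same test. CPM were scaled by total and TMM factor, without a pseudocount. The fits were tested on simulated data.

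The 10 genes and the lists of related genes and markers were chosen with earlier results of these data known, so no list is independent support. Genes named from a list were those called in a treatment comparison or, where none was, the 2 with the highest mean count, and others are said to be named after their values were seen. Of the genes so chosen, 2 are not reported here. The 5 genes most alike were those with the highest Pearson correlation to the mean of the 7 tested genes, in log2 CPM with a prior count of 2, centred within batch.

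The depth of 12.1 to 82.4 M counts per library makes 3 counts equal to 0.0288 to 0.310 CPM, a floor that covers counting error only. The alternatives were DESeq2 1.42.0, upper-quartile factors, no filter or at least 10 counts in every library, no batch covariate, RIN as a covariate, only libraries of RIN 3 or 6 and above, only the groups compared, and each library left out in turn. For the batch comparison, the control libraries alone, RIN as a covariate and the libraries left out in turn were chosen after the data were seen.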

Additional observations from a re-analysis of the deposited data

Results flagged for a closer look

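In 5 of 60 groups of 6 libraries, 1 library stood far above the others by Dixon's test, and chance would give about 1 in 20 for continuous values, a rate that does not hold for counts that are mostly 0. All 5 were counts of low genes, and in control and DEX of batch 1 the other libraries had no read of C1qa, so that any read would stand out. C1qa stood out in batch 1 in control library 4 (0.0946 CPM, 3 reads), in DEX library 8 (0.203 CPM, 3 reads) and in DEX + RU-486 library 18 (0.923 CPM, 12 reads, RIN 5.6). P2ry12 stood out in DEX library 9 of batch 1 (0.481 CPM, 8 reads) and in DEX + RU-486 library 32 of batch 2 (0.448 CPM, 7 reads, RIN 2.1). Library 18 held 12 of the 16 C1qa reads of its group in batch 1, where the difference between DEX + RU-486 and control, fitted without the filter on low counts, was 3.21 on the log2 scale (SE 1.39, unadjusted p = 0.0256, adjusted p = 0.172 in edgeR).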

How the results depend on the processing

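The count of 0 called genes in each treatment comparison over both batches held under every alternative that could be run, and the count of 5 in the batch comparison fell to 3 with RIN 3 or above, with RIN 6 or above, and with batch and RIN as covariates. Leaving out each library in turn gave 0 in each treatment comparison and 4 to 5 in the batch comparison. Within batch 1, DESeq2 called 1 gene in DEX + RU-486 against control. A minimum of 10 counts in every library left no microglia gene to test. No paired analysis was possible because the library numbers 1 to 36 are not shared between groups.

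Some directions turned, all on the log2 scale, with neither the reported value nor the alternative past the threshold, and the cause was not tested. Most reported values were under 0.5 in size, but Cx3cr1 stood at 0.78 in DEX + RU-486 against control, at 0.88 in DEX + RU-486 against DEX, and there at 0.87 within batch 1 and 0.75 within batch 2, and Aif1 stood at 0.76 in the batch comparison. In DEX against control, Tyrobp was 0.036 with DESeq2, 0.027 with upper-quartile factors and 0.31 with batch and RIN, C1qc was -0.051 without the batch, Cx3cr1 was 0.14 and Aif1 0.14 with RIN 6 or above, and Cx3cr1 was 0.12 with only the groups compared. In DEX + RU-486 against control, Trem2 was -0.063 without the batch, -0.65 with batch and RIN, -0.35 with RIN 3 or above and -0.27 with RIN 6 or above. There, Cx3cr1 was -0.060 with batch and RIN and -0.46 with RIN 6 or above, and Aif1 was -0.27, -0.017 and -0.325 with batch and RIN, RIN 3 or above, and RIN 6 or above. In DEX + RU-486 against DEX, Aif1 was -0.0012 with RIN 3 or above and -0.46 with RIN 6 or above, where Cx3cr1 was -0.60. In the batch comparison, Aif1 was -0.21 with batch and RIN, -0.43 with RIN 3 or above and -0.34 with RIN 6 or above. Within batches at RIN 6 or above, Aif1 was -0.031 in DEX + RU-486 against control of batch 1, Cx3cr1 was -0.87 in DEX + RU-486 against DEX of batch 1, and in batch 2 that comparison gave C1qc -0.057, Cx3cr1 -0.19, Aif1 -0.048 and Itgam -0.12.

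With each library left out in turn, DEX against control ranged from -0.19 to 0.675 for C1qc, -0.49 to 0.497 for Cx3cr1, -0.46 to 0.24 for Tyrobp and -0.37 to 0.21 for Aif1. DEX + RU-486 against control ranged from -0.29 to 0.504 for Trem2 and -0.092 to 0.44 for Aif1. DEX + RU-486 against DEX ranged from -0.0022 to 1.19 for Cx3cr1, -0.91 to 0.0014 for Tyrobp, -0.038 to 0.56 for Aif1 and -0.44 to 0.23 for Itgam. The summed reads of all 10 genes were 10 to 257 in a library, and the part of depth in the precision was not tested.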
